A study of Homo sapiens with 3 samples.

Results

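The genes described here are 10 enzymes and core subunits that write, copy and erase DNA methylation or the Polycomb histone mark: DNMT1, DNMT3A, DNMT3B, UHRF1, TET1, TET2, TET3, EZH2, EED and SUZ12. They were chosen by name, and every RefSeq transcript row that the deposited table gives under these symbols was used, which makes 21 of 28848 rows and 10 of 18674 genes. RNA sequencing was carried out on A2780, a cell line from an undifferentiated ovarian tumour. Cells stably expressing exogenous miR-181a gave 2 libraries, p181a#1 and p181a#2, called pool 1 and pool 2 here, and cells with the empty pBABE vector gave 1 library. Both groups were stable lines, and the labels describe the miR-181a cells as polyclonal pools in one place and as clones in another. Whether the pools come from separate cultures is not said. The p-values set the difference from the pBABE library against a spread seen only between these 2 samples, which may be technical.

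DNA methylation is set on unmethylated DNA by the de novo enzymes DNMT3A and DNMT3B and is copied after replication by DNMT1, which UHRF1 brings to hemimethylated sites. The TET dioxygenases oxidise 5-methylcytosine and so start its removal. EZH2, EED and SUZ12 form the core of Polycomb repressive complex 2 (PRC2), which methylates histone H3 on lysine 27 and keeps developmental genes silent. Several of these genes are often overexpressed in proliferating tumours, EZH2 in ovarian carcinoma among them.

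A microRNA pairs with its targets mainly through its seed, so the mature miR-181a-5p from RefSeq (GRCh38.p14) is shown with the seed, bases 2 to 8, in capitals. It is encoded on chromosome 1 (MIR181A1) and chromosome 9 (MIR181A2) with the same mature sequence. The second line is the single match to that seed in the 3' UTR of the 10 genes, in EED (chr11:85989678-85989705, plus strand, GRCh37), with the match in capitals.
miR-181a-5p: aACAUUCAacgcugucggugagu
EED 3' UTR: caatcaggctgagcTGAATGTAgtgatg
The motif searched was TGAATGT on the transcribed strand, the reverse complement of the seed, in the 3' UTR of the GENCODE MANE Select transcript of each gene. The EED match starts at base 125 of a UTR of 285 bases and is followed by an A, which makes it an 8-mer match. The other 9 genes had no TGAATGT in UTRs of 263 bases (EZH2) to 6405 bases (DNMT3A). Of 18922 genes with such a transcript, 19.2% held TGAATGT and 6.18% the longer TGAATGTA. A match is a description of the letters only, and no match says nothing about other forms of pairing.

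Each deposited value is the coverage of 1 RefSeq transcript on a linear scale, the median over 50 bp windows, so values can be compared between genes of different length. Reads were not counted in the table, and the depth of the libraries is unknown. Summed coverage was 907092 and 719263 in the pools and 798228 in the pBABE library. The pBABE library stood apart: of 8822 transcripts listed at 0 in both pools, 5549 (62.9%) had a pBABE value above 0, and this property bears on every gene given as lower below. Of 10 ovarian carcinoma markers, 6 (PAX8, WT1, MUC16, KRT7, EPCAM and ESR1) were listed at 0 in both pools. WT1 and KRT7 were at 0 in the pBABE library too, and MUC16 was at 0.649 there. ESR1 (104) and EPCAM (66.3) were the highest of the list in that library. The list summed to 16.5 and 16.0 in the pools, against 233 in the pBABE library. The 5 immune markers summed to 0.444 and 0.0635, against 67.8, and the 4 endothelial markers to 0 and 0.037, against 220, with KDR and VWF at 0 in both pools. The 5 fibroblast markers summed to 800 and 737 in the pools and 320 in the pBABE library. DCN (480 and 420 against 144) and LUM (232 and 245 against 120) made up most of each sum. COL1A2 (83.8 and 69.0 against 47.1) and PDGFRB (4.19 and 1.92 against 1.08) were higher in both pools as well. COL1A1 was lower, at 0 and 0.706 against 7.41. The part of these differences in the results was not tested.

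Differences are given as log2 fold, the difference of log2(coverage + 1), a scale on which changes of weakly covered genes come out too small. The 2 pools were compared with the pBABE library by limma over all 12552 genes tested. Each gene was read by 1 transcript row, the row of highest mean over the 3 libraries, so the pBABE value helped to choose it. For EZH2 and UHRF1 the row used had a lower pool mean than the other row and was taken through its pBABE value. None of the 10 genes rose and none fell at a threshold of 0.05 on the limma adjusted p, and 1 (EZH2, lower) had an unadjusted p under 0.05 (0.0302), where 5.39% of all genes tested were higher and 27.8% lower by that rule. Over all genes tested, 126 (1.00%) rose and 2725 (21.7%) fell. The split depended on scaling, with 3706 that rose and 3112 that fell when library medians were set equal. By size alone, no member differed by 1 log2 unit or more in the same direction in both pools, against 2.53% of genes higher and 27.3% lower by that rule. Of the 10 genes, 5 were higher in both pools, 4 lower and 1 (UHRF1) split. These counts lay close to the 44.6% of all genes tested that were higher in both and the 41.8% lower. The median log2 fold was 0.12, beside 0.07 for all genes tested. The counts depend on the row, since with the row of highest pool mean EZH2 (0.41) and UHRF1 (0.53) were higher in both pools. An exact permutation of 2 libraries against 1 cannot give a p below 0.333, so none was used for single genes. In genes with a mean coverage above 50, and above 0 in every library, the median log2 ratio to pBABE was 0.58 in pool 1 and 0.23 in pool 2. That ratio was taken without the added 1. Folds after dividing each pool by its median ratio are given below as shifted folds. In a bulk sample, fewer cells of a type and less RNA per cell cannot be told apart.

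**Figure D1:**
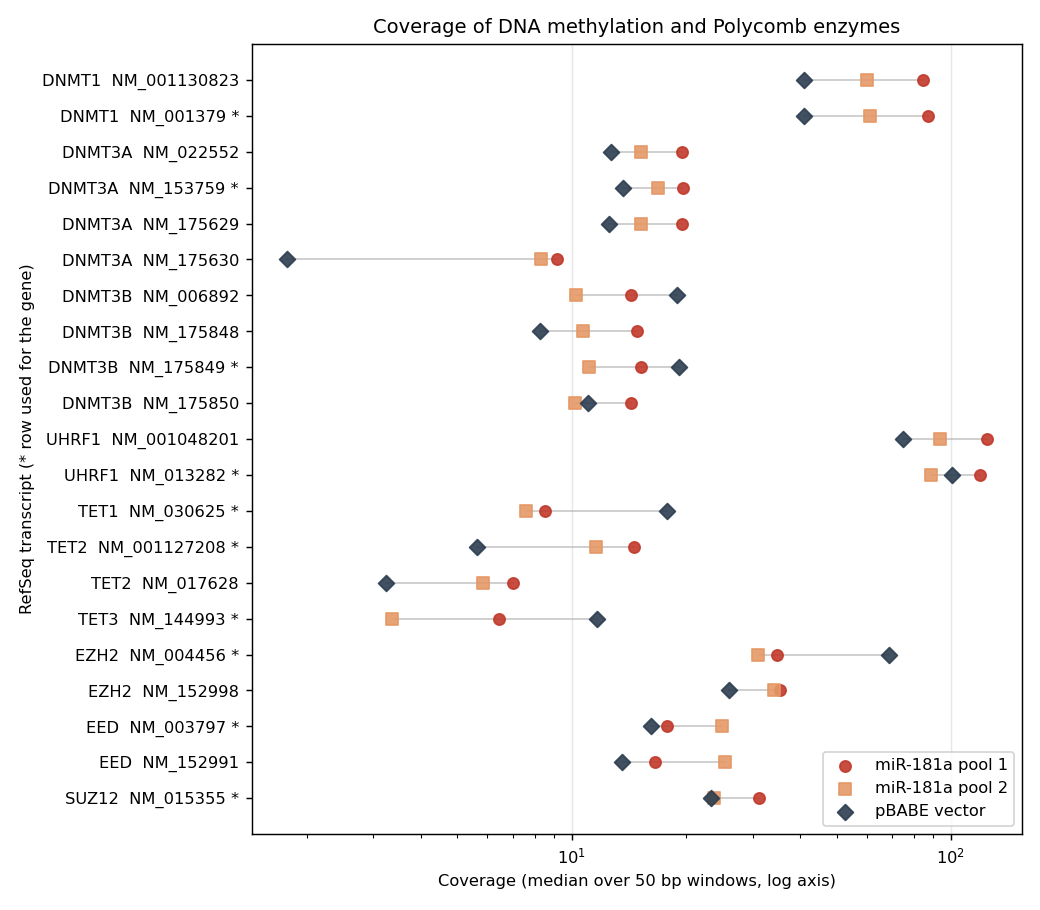
Coverage (log axis, median over 50 bp windows) of the 21 RefSeq transcripts of the 10 genes, with 1 point for each of the miR-181a pools and the pBABE library and no error bar, since each point is 1 library. The pBABE points lie left of both pools for DNMT1, DNMT3A, TET2, EED and SUZ12 and right of both for TET1, TET3, one of the 2 EZH2 rows and 2 of the 4 DNMT3B rows.

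The maintenance pair, DNMT1 and UHRF1, had the highest coverage of the 10 genes in the pools. DNMT1 (ENSG00000130816, chromosome 19, 10244018 to 10341962 on GRCh37, minus strand, protein coding), the methyltransferase that copies methylation to the new strand, had a coverage of 87.0 and 61.3 in pools 1 and 2, against 41.0 in the pBABE library (NM_001379). Both pools were above the pBABE value, and the other DNMT1 row, NM_001130823, lay close by at 84.3 and 60.1 against 40.9. The log2 fold of DNMT1 was 0.82 (SE 0.34, limma adjusted p = 0.253), and the shifted folds were 0.50 and 0.34. DNMT1 passed in 1 of 9 tested alternatives, with library medians set equal (log2 fold 1.26, limma adjusted p = 0.0261).

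UHRF1 (ENSG00000276043, chromosome 19, 4903092 to 4962165, plus strand), the reader of hemimethylated CpG that recruits DNMT1, had a coverage of 119.3 and 88.5 in the pools, against 100.4 in the pBABE library, in the row used (NM_013282). The pBABE value lay between the pools. In its other row, NM_001048201, both pools were above the pBABE library, at 125 and 93.9 against 74.7. The log2 fold was 0.03 (SE 0.30, limma adjusted p = 0.946) for the first row and 0.53 (limma adjusted p = 0.339, in a fit over all 19181 transcript rows tested) for the other. With shifted values, the first row lay below the pBABE library in both pools (-0.33 and -0.41). The ratio of DNMT1 to UHRF1 within a library, which no scaling can move, was 0.73 and 0.69 in the pools and 0.41 in the pBABE library with NM_013282. With NM_001048201 it was 0.70 and 0.65 in the pools, against 0.55. The ratio was higher in both pools than in the pBABE library with either row, and it was not tested.

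In the fit over every transcript row, on unscaled coverage, 1 of the 21 rows passed, a row of the de novo enzyme DNMT3A, while DNMT1, UHRF1, TET1, TET2, EZH2 and SUZ12 each passed under some alternative of the fit over genes. DNMT3A (ENSG00000119772, chromosome 2, 25450724 to 25565459, minus strand) has 4 rows. NM_175630, which encodes a short isoform known to lack the catalytic domain, had a coverage of 9.14 and 8.30 in the pools, against 1.77 in the pBABE library. Both pools were well above the pBABE value and close to each other. Its log2 fold was 1.81 (SE 0.14), and it rose in the fit over every row (limma adjusted p = 0.0186), where 1.13% of 19181 rows rose and 17.2% fell. It was also the only member row past the size rule of 1 log2 unit in both pools, which 3.31% of rows passed upward and 21.9% downward, and the shifted folds were 1.36 and 1.54. The fit over rows was added after the gene-level values were known, rows of a gene share reads, and the call rests on a pBABE coverage below 2. That value also lay below the filter threshold used for genes, 2.44. The row therefore entered the filtered test through the pools, where it was high, although it passed with no filter too.

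The 3 rows of DNMT3A that code for catalytic forms differed less. NM_153759, the row used for the gene, which encodes the shorter catalytic form DNMT3A2, had a coverage of 19.7 and 16.9 in the pools and 13.7 in the pBABE library. Its log2 fold was 0.39 (SE 0.29, limma adjusted p = 0.426), and its shifted folds were -0.05 and 0.07. Relative to the genes with a mean coverage above 50, to which it does not belong, its change was thus small. NM_022552 and NM_175629 had the same coverage in the pools, 19.6 and 15.2, against 12.7 and 12.6 in the pBABE library. The short row stood at 0.46 and 0.49 of NM_153759 in the pools and at 0.13 in the pBABE library.

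DNMT3B (ENSG00000088305, chromosome 20, 31350191 to 31397165, plus strand), the second de novo methyltransferase, had rows that pointed in different directions. In the row used, NM_175849 (isoform 3), coverage was 15.3 and 11.1 in the pools, below 19.2 in the pBABE library, a difference of -0.53 in log2 fold (SE 0.37, limma adjusted p = 0.409). NM_006892 (isoform 1) was likewise lower, at 14.3 and 10.3 against 19.0. NM_175848 (isoform 2) was higher, at 14.8 and 10.7 against 8.28, and NM_175850 was split, at 14.3 and 10.2 against 11.03. In the pools the highest row was 1.06 and 1.08 times the lowest, while in the pBABE library it was 2.32 times the lowest. The direction of DNMT3B therefore depended on the row, and the shifted folds were -0.85 and -0.95 for NM_175849 and 0.24 and 0.13 for NM_175848. A pBABE value at least as large as the difference between the pBABE library and the pool mean in NM_175849, 6.01, was found in 24.7% of the transcripts listed at 0 in both pools.

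The ratio of DNMT3A to DNMT3B also depended on the row. With the rows used it was 1.29 and 1.53 in the pools, against 0.71 in the pBABE library. With NM_175848 for DNMT3B it was 1.33 and 1.58 in the pools and 1.65 in the pBABE library, so the order of the groups turned round. With NM_006892 it was 1.37 and 1.65 in the pools, against 0.72, and with NM_175850 1.37 and 1.66, against 1.24, so both of these rows kept the order.

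**Figure D2:**
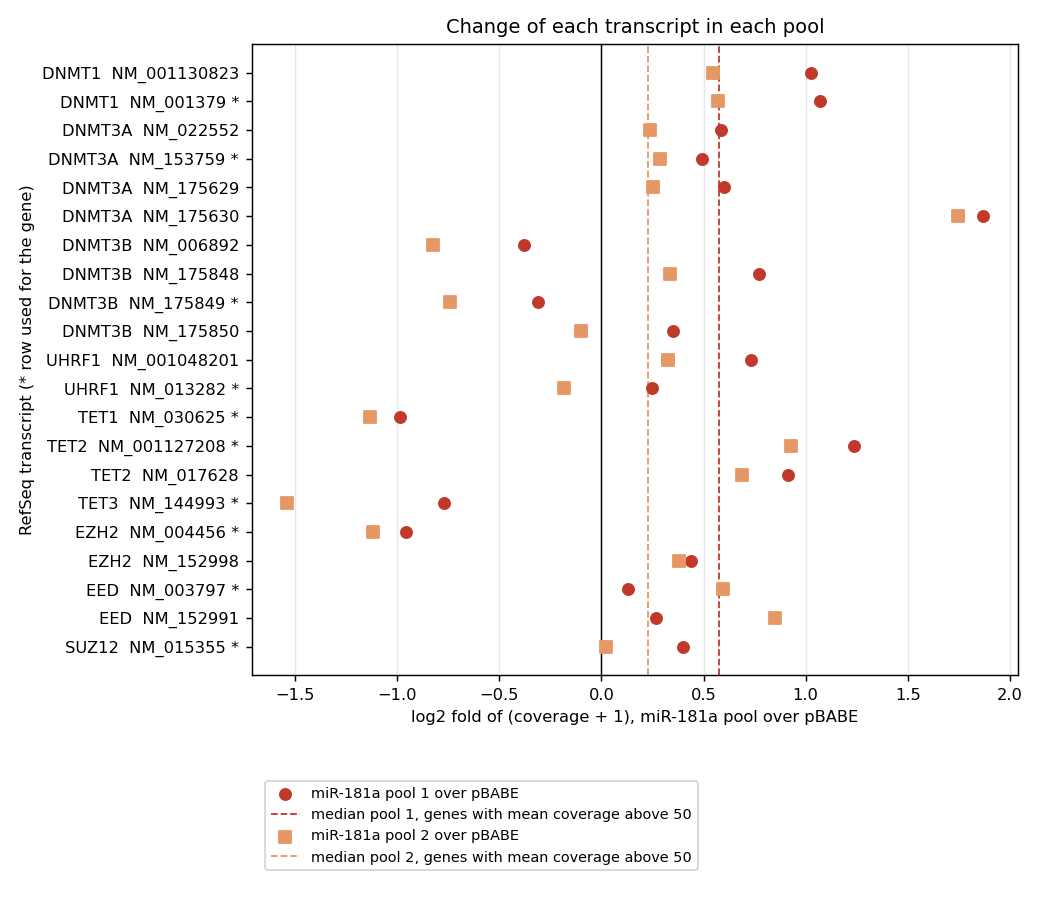
Log2 fold of coverage + 1 for each of the 21 RefSeq transcripts, each miR-181a pool over the pBABE library, with 1 point per pool and no error bar. Dashed lines mark the median log2 ratio, without the added 1, of genes with a mean coverage above 50 and above 0 in every library. That median was 0.58 in pool 1 and 0.23 in pool 2. DNMT3A NM_175630, at 1.87 and 1.74, is the row farthest to the right, and the 2 EZH2 rows lie on opposite sides of 0.

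The TET genes differed from one another in direction. TET2 was higher in both pools, while TET1 and TET3 were lower in both, and none of the 3 passed the test. TET2 (ENSG00000168769, chromosome 4, 106067032 to 106200973, plus strand), a dioxygenase known as a tumour suppressor in blood cells, had a coverage of 14.6 and 11.6 in the pools, against 5.62 in the pBABE library (NM_001127208). Its log2 fold was 1.08 (SE 0.31, limma adjusted p = 0.175), and its shifted folds of 0.70 and 0.72 nearly coincided. The row for a short TET2 isoform without the catalytic domain, NM_017628, lay in the same direction, at 6.99 and 5.83 against 3.24 (log2 fold 0.80, limma adjusted p = 0.117 in the fit over rows). The short row was 0.48 and 0.50 of the full-length row in the pools and 0.58 in the pBABE library.

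TET1 (ENSG00000138336, chromosome 10, 70320094 to 70454244, plus strand), the TET enzyme best known from embryonic stem cells, had a coverage of 8.50 and 7.59 in the pools, against 17.8 in the pBABE library. Both pools were below the pBABE value. The log2 fold was -1.06 (SE 0.28, limma adjusted p = 0.155), with shifted folds of -1.49 and -1.33. A pBABE value at least as large as the difference of 9.77 was found in 16.6% of the transcripts listed at 0 in both pools.

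TET3 (ENSG00000187605, chromosome 2, 74212037 to 74335303, plus strand), the TET enzyme known for oxidising the paternal genome in mouse zygotes, had a coverage of 6.44 and 3.35 in the pools, against 11.7 in the pBABE library. It was lower in both pools, and the pools themselves lay 0.77 log2 units apart. The log2 fold was -1.15 (SE 0.48, limma adjusted p = 0.253), with shifted folds of -1.25 and -1.72. The difference of 6.78 was reached by the pBABE value of 22.6% of the transcripts listed at 0 in both pools.

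The make-up of TET transcripts within a library differed between the groups. TET2 made up 49.4% and 51.5% of the summed TET coverage in the pools, against 16.0% in the pBABE library. TET1 made up 28.8% and 33.7% in the pools and 50.7% in the pBABE library, and TET3 21.8% and 14.9%, against 33.3%. TET2 was the highest of the 3 genes in both pools and the lowest in the pBABE library, and the ratio of TET2 to TET1 was 1.72 and 1.53 in the pools, against 0.32. These shares do not move with scaling between libraries, but they do move with any added pBABE signal in TET1 or TET3. Differences as large as those of TET1 and TET3 were reached in 16.6% and 22.6% of the transcripts listed at 0 in both pools. The shares rest on a single pBABE library and were not tested.

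**Figure D3:**
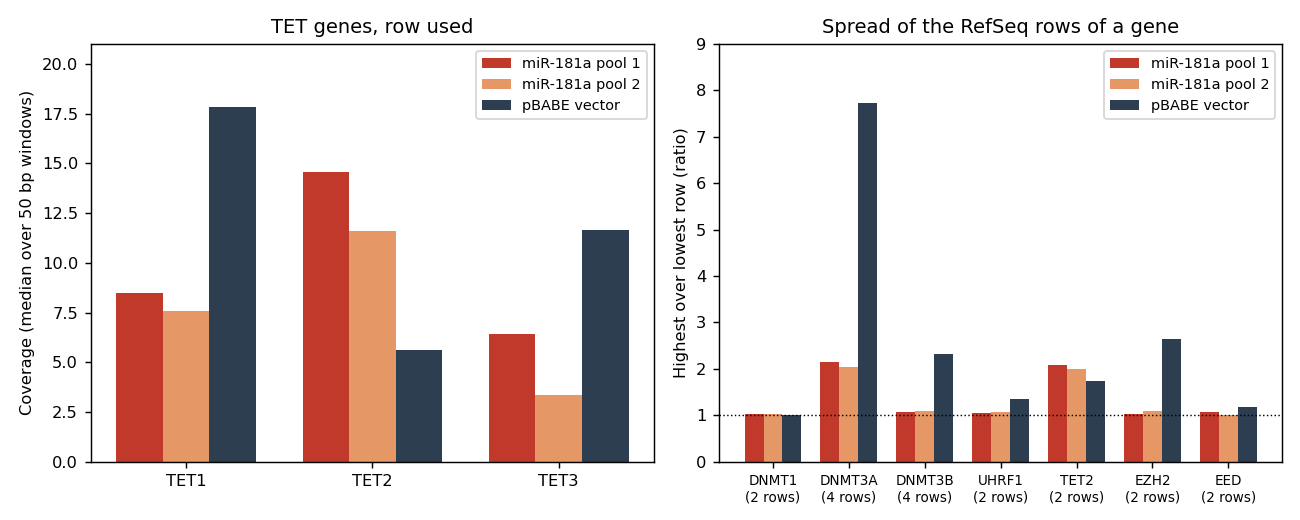
Left, coverage of TET1, TET2 and TET3 in the miR-181a pools and the pBABE library, with 1 bar per library and no error bar; TET2 is the highest in both pools and the lowest in the pBABE library. Right, the ratio of the highest to the lowest RefSeq row of each of the 7 genes with several rows, by library, which for EZH2 is 1.02 and 1.10 in the pools and 2.64 in the pBABE library.

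None of the PRC2 core subunits passed the test on unscaled coverage. EED and SUZ12 were higher in both pools, and EZH2 was lower or higher with the row read. EZH2 (ENSG00000106462, chromosome 7, 148504349 to 148581413, minus strand), the histone H3 lysine 27 methyltransferase, had rows in opposite directions. In the row used, NM_004456 (isoform a), coverage was 34.8 and 31.1 in the pools, against 68.5 in the pBABE library, a difference of -1.04 in log2 fold (SE 0.21, limma adjusted p = 0.106). In NM_152998 (isoform b) it was 35.5 and 34.2 in the pools, against 26.0, a difference of 0.41 in log2 fold (limma adjusted p = 0.342 in the fit over rows). The 2 rows differed by a factor of 1.02 and 1.10 in the pools and 2.64 in the pBABE library, so the direction of EZH2 turned with the transcript. NM_004456 was the row used only through its pBABE value, since its pool mean (32.9) lay below that of NM_152998 (34.9). Its test values, with and without the shift, rest on that choice of row. The difference of 35.6 in NM_004456 was reached by the pBABE value of 4.10% of the transcripts listed at 0 in both pools. With shifted values NM_004456 had a log2 fold of -1.43 and passed the test (limma adjusted p = 0.0357), while the shifted folds of NM_152998 were -0.12 and 0.16.

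EED (ENSG00000074266, chromosome 11, 85912254 to 85989855, plus strand), which binds trimethylated lysine 27 and activates the complex, is the 1 gene with a miR-181a seed match in its 3' UTR, shown above. Its coverage was 17.8 and 24.9 in the pools, against 16.2 in the pBABE library (NM_003797), and 16.6 and 25.3 against 13.6 in its other row, NM_152991. Both pools were above the pBABE value in both rows. The log2 fold was 0.36 (SE 0.36, limma adjusted p = 0.534), and the shifted folds were -0.41 and 0.37. On unscaled coverage EED was higher in pool 2 than in pool 1, by 0.46 log2 units, and the other 9 genes were lower in pool 2 by 0.15 to 0.77. By shifted folds TET1, TET2, EZH2 and DNMT3A were higher in pool 2 as well.

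SUZ12 (ENSG00000178691, chromosome 17, 30264026 to 30328057, plus strand), the scaffold subunit of PRC2, had a coverage of 31.2 and 23.8 in the pools, against 23.4 in the pBABE library. Pool 1 was above the pBABE value and pool 2 close to it. A partial pseudogene copy, SUZ12P1, can share reads with it. The log2 fold was 0.21 (SE 0.31, limma adjusted p = 0.659), and the shifted folds were -0.15 and -0.20. Relative to SUZ12 in the same library, EZH2 was at 1.12 and 1.31 in the pools, against 2.93, by NM_004456, and at 1.14 and 1.44, against 1.11, by NM_152998. EED was at 0.57 and 1.05 of SUZ12 in the pools, against 0.69.

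Rows of one gene lay apart more often in the pBABE library than in the pools, for these genes as in the table at large. Of the 7 genes with several rows, the highest row was at least 1.5 times the lowest in 2 genes in each pool (DNMT3A and TET2) and in 4 in the pBABE library (DNMT3A, DNMT3B, TET2 and EZH2). DNMT3A had the widest spread, 2.15 and 2.04 in the pools and 7.72 in the pBABE library, through its short row. DNMT1 had a ratio of 1.03 and 1.02 in the pools and 1.00 in the pBABE library, where it was the lowest of the 7, while EZH2 was lower in pool 1 (1.02) and EED in pool 2 (1.01). Over 3984 genes with several rows, all above 0 in every library, the ratio reached 1.5 in 12.6% and 12.7% of genes in the pools and in 41.1% in the pBABE library. The median ratio was 1.07 in each pool and 1.31 in the pBABE library.

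The order of the 10 genes by mean coverage in the pools, with the SD over the 2 pools, began with UHRF1 at 104 ± 21.8 and DNMT1 at 74.1 ± 18.2, then EZH2 at 32.9 ± 2.66. SUZ12 followed at 27.5 ± 5.24, EED at 21.4 ± 5.03 and DNMT3A at 18.3 ± 1.93. DNMT3B at 13.2 ± 2.96, TET2 at 13.1 ± 2.11, TET1 at 8.04 ± 0.64 and TET3 at 4.90 ± 2.18 completed it (n = 2 each). UHRF1 lay above 92.9% of all genes tested and TET3 above 27.6%. The pool values of EZH2 and SUZ12, of SUZ12 and EED, of EED and DNMT3A, and of DNMT3B and TET2 overlapped. Within a library, EZH2 was above SUZ12 in pool 1 (34.8 against 31.2) and in pool 2 (31.1 against 23.8). The order of the other overlapping neighbours turned between the pools. In the pBABE library the order was UHRF1, EZH2, DNMT1, SUZ12, DNMT3B, TET1, EED, DNMT3A, TET3 and TET2. The places of EZH2 and DNMT3B there rest on the row used, since by NM_152998 (26.0) EZH2 lay below DNMT1 and by NM_175848 (8.28) DNMT3B lay below TET3. The place of TET2 was the eighth in the pools and the last in the pBABE library.

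The other genes of these pathways were read in 7 lists of 63 genes, of which 60 were tested. By limma none rose and 5 fell, a share to be read beside the 21.7% of all genes that fell. At an unadjusted p under 0.05, 0 were higher and 9 lower, against 5.39% and 27.8% of all genes tested. The counts of genes higher in both pools given below stand beside 44.6% of all genes tested. The 5 that fell were EZH1, PCGF5, CBX7, KDM6B and DNMT3L, and 2 of them were listed at 0 in both pools. The difference between the pBABE value and the pool mean was reached by the pBABE value of 3.79% of the transcripts listed at 0 in both pools for EZH1, 19.4% for PCGF5, 29.0% for CBX7, 0.35% for KDM6B and 14.7% for DNMT3L. Over the 60 companion genes the log2 folds had a median of 0.20, beside 0.07 for all genes tested, and -0.19 and -0.31 after the shift.

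**Figure D4:**
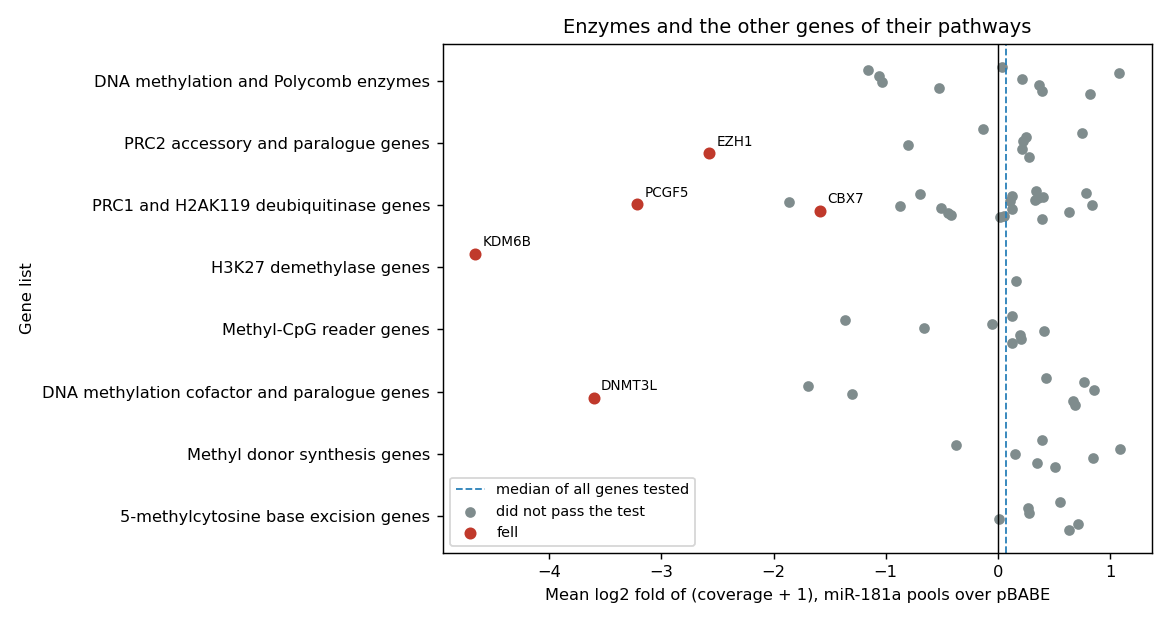
Mean log2 fold of coverage + 1 over the 2 miR-181a pools against the pBABE library for the 10 enzymes and for the tested genes of 7 companion lists, with 1 point per gene. Named points in red are the 5 genes that fell by the limma test, and the dashed line is the median of all genes tested, 0.07.

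Of 8 PRC2 accessory genes and paralogues, none rose, 1 fell and 4 were higher in both pools (median 0.22). EZH1, the paralogue of EZH2 that dominates in resting cells, fell to 7.47 and 6.08 in the pools, against 45.2 in the pBABE library (log2 fold -2.58, SE 0.31, limma adjusted p = 0.0468). It did not pass with the row chosen by pool mean (0.0523) or without a variance trend (0.0536). RBBP4, a histone-binding subunit of PRC2, had 113 and 97.2 in the pools, against 61.9, and MTF2, a PRC2 recruiter, 20.8 and 22.7, against 38.5, and neither passed. MTF2 has 4 rows, and its log2 fold was -0.80 in the row given and -0.36 in the row of highest pool mean. The 2 H3K27 demethylase genes differed: KDM6B had 13.9 and 8.15 in the pools, against 294 in the pBABE library, and fell (log2 fold -4.66, SE 0.45, limma adjusted p = 0.032). KDM6A, the second such demethylase, had 16.8 and 11.1, against 12.1. KDM6B did not pass without a filter (0.0533) or without a variance trend (0.0795).

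Of 21 genes of Polycomb repressive complex 1 (PRC1), the complex that ubiquitinates histone H2A, and its opposing deubiquitinase, 2 fell and none rose (median 0.11). The median was -0.29 after the shift, beside -0.31 for all genes tested. PCGF5, a subunit of a variant PRC1, was listed at 0 in both pools, against 8.28 in the pBABE library, so it passed the filter only through its pBABE value and its fall was fixed by that. CBX7, a reader of methylated lysine 27, had 1.12 and 1.66 in the pools, against 6.12 in the pBABE library (limma adjusted p = 0.0467). Its pool values lay below the filter threshold of 2.44, so it too passed the filter only through its pBABE value, which fixed its direction, and it did not pass the test with no filter, without a trend or with either other scaling (0.0775 to 0.111). PCGF6, another variant subunit, had 12.3 and 12.9 in the pools, against 48.2, and just missed the threshold (limma adjusted p = 0.0548). The catalytic RING1 and RNF2 had log2 folds of 0.40 and 0.13, and BMI1, of canonical PRC1, 0.05.

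Of 8 methyl-CpG readers, none rose or fell (median 0.12). Examples were ZBTB38, at 5.59 and 4.40 in the pools, against 14.4, and MBD4, a glycosylase, at 22.4 and 19.0, against 15.2. Of 8 tested cofactors and paralogues of the DNA methyltransferases, 1 fell and 5 were higher in both pools (median 0.55). DNMT3L, a catalytically inactive partner of the de novo enzymes in germ cells, was listed at 0 in both pools, against 11.2 in the pBABE library, passed the filter only through that value, and was not tested when rows were chosen by pool mean. HELLS, a remodeller needed for DNA methylation, had 36.9 and 29.3 in the pools, against 82.5 (limma adjusted p = 0.107). TRDMT1, which methylates transfer RNA, had 3.38 and 1.95, against 10.6. PCNA, the replication clamp that binds DNMT1, had 299.6 and 239 in the pools, against 147, a log2 fold of 0.86 (limma adjusted p = 0.187).

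None of the tested genes that supply or remove the methyl group passed the test. Of 7 tested genes of methyl donor synthesis, 5 were higher in both pools, where 44.6% of all genes tested were (median 0.40). Methionine synthase, MTR, had 18.0 and 14.5 in the pools, against 7.08, MTHFD1, of folate metabolism, 110 and 88.7, against 54.4, and AHCY, which clears S-adenosylhomocysteine, 399 and 301, against 243. Of 6 tested genes of base excision after TET oxidation, 5 were higher in both pools (median 0.42), among them APEX1 at 323 and 270, against 190, XRCC1 at 34.0 and 28.5, against 20.9, and GADD45A at 12.4 and 6.26, against 5.01. After the shift the medians of both lists were -0.004 and 0.03, beside -0.31 for all genes tested.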

How the data were processed

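Poly-A RNA was sequenced on an Illumina instrument and the reads were mapped to hg19, per the labels' protocols. For each gene the authors took read density in sliding 50 bp windows and deposited its median as a coverage signal. No aligner or gene annotation is given in the sources used here. A log transform and quantile normalization are described too, yet the deposited signal is linear and its quantiles are unequal.

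Of 29156 rows, 308 without a pBABE value were left out, none of them of the 10 genes. Symbols turned into dates (54 rows) were restored by accession in 52. Of the 21 member rows, 19 have an accession that RefSeq still lists under that symbol, and NM_144993 (TET3) and NM_152991 (EED) do not. Genes whose mean exceeded the lowest 25% of those not at 0 throughout were tested on log2(coverage + 1) with limma 3.58.1 in R 4.3.3 (eBayes, variance trend, Benjamini-Hochberg). The test has 1 residual degree of freedom, and assumes that the single pBABE library varies like the pools. All 10 members passed the filter. Shifted folds divide each pool by its median ratio to pBABE in genes with a mean above 50 that were above 0 in every library.

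Companion lists, markers and the members were chosen with earlier results of these data known. Named were all members and, in each list, genes past the test and up to 3 with the largest mean fold among those moved alike in the pools. KDM6A, RING1, RNF2, BMI1 and PCNA were added after their values were seen. The values of 1 gene of the reader list are not reported here. Seed matches used GENCODE on GRCh37, the assembly of hg19, where 10929 tested genes matched by symbol. Figures were drawn with matplotlib 3.10.9.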

Additional observations from a re-analysis of the deposited data

How the results depend on the processing

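Of the 89 tested alternative values of the 10 genes, 77 kept their direction and their side of the threshold, 8 passed the test where the reported value did not, and 4 turned in direction; the causes were not tested. With library medians set equal, DNMT1 (1.26), UHRF1 (0.47), TET2 (1.498) and SUZ12 (0.64) passed. With the pools shifted by genes above 50, TET1 (-1.41) and EZH2 (-1.43) passed, and UHRF1 (-0.37), EED (-0.017) and SUZ12 (-0.18) turned below 0. With the row chosen by pool mean, EZH2 turned to 0.41. With the filter at the median, TET1 (-1.06) and TET2 (1.08) passed at an unchanged fold, where the prior degrees of freedom of limma became infinite (1.22 as reported) and TET3 was no longer tested. Leaving out a pool left 20 values with no test, which ranged from -1.54 to 1.24, and 1 of them turned in direction, UHRF1 without pool 1 (-0.18). The DNMT3A row NM_175630 passed under each of 6 alternatives tested and was not tested with the filter at the median. Leaving out a pool gave it 1.74 and 1.87. Genes that rose numbered 278 with no filter, 402 with the filter at the median, 3706 with medians set equal and 294 after the shift, and those that fell 5626 and 1476 with those filters. By the size rule 506 were higher at a pseudocount of 0.1, 63 at 10, 2230 with medians set equal, 85 after the shift, 1711 at 1.5-fold and 15 at 4-fold. With 1 pool alone they numbered 356 (pool 2) and 1305 (pool 1), and 3859 and 3464 were lower. Lower genes numbered 5718 with no filter, 1428 with the filter at the median and 2282 at a pseudocount of 10. Companion genes that rose numbered 1 with the filter at the median, 21 with medians set equal and 1 without a variance trend. Those that fell numbered 11 after the shift, 3 with the row by pool mean and 3 without a trend. No paired analysis was possible because the pBABE group has 1 library and its label carries no number. The unknown depth and 1 residual degree of freedom limit every call.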
